A study of Caenorhabditis elegans with 2 samples.

Results

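The regions described here are 204 places where the zinc finger protein SDZ-12 was found at promoters of protein-coding genes in Caenorhabditis elegans larvae, away from small RNA genes. They make up 204 of the 665 peaks (30.7%, 95% Wilson interval 27.3 to 34.3) in the authors' final list from 2 biological replicates. A peak was taken where its summit lay from 1000 bp upstream to 200 bp downstream of the annotated 5' end of a protein-coding gene and more than 200 bp from any tRNA, snoRNA or snRNA gene. Position alone chose them, so lying at a promoter is no finding. What follows describes where in the promoter the summits lay, which genes they stood beside, their DNA and their signal in each replicate.

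The study is a chromatin immunoprecipitation followed by sequencing, which recovers the DNA that a chosen protein sits on. There was 1 group. Strain OP670 has the unc-119(tm4063) mutation and the integrated array wgIs670, which holds sdz-12::TY1::EGFP::3xFLAG and an unc-119(+) rescue gene. The animals were whole L4 larvae, 71 hours old and of both sexes, grown from starved L1 larvae. The description says that an antibody to GFP was used, while the antibody field names sdz-12. The tagged copy came from an array beside the strain's own gene, the animals held every tissue at once, and no untagged strain was analysed here.

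SDZ-12 belongs to the C2H2 zinc finger proteins, many of which bind DNA through finger-like folds held by zinc. In C. elegans many promoters are short and serve a pair of genes that point away from each other. Many mRNAs of this animal also lose their original 5' end, because a spliced leader is joined on by trans-splicing, so the annotated 5' end of a gene can lie downstream of the place where transcription starts.

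The DNA under the strongest of these summits is shown first, because several of the windows share short words. Words were sought on both strands throughout. Each window runs 50 bp to either side of the summit on the plus strand of ce11 (WBcel235), read from the RefSeq copy of that assembly. They are 8 of the strongest summits that lay in no annotated exon. Capitals mark 3 words on either strand. The first word is CGCACAC. The second word is ATACACT. The last is GAGACGCAG, which EOR-1, another zinc finger factor, is known to bind. A window without capitals holds none of the 3. The windows at ego-1, at F56G4.6 and wbp-4 and at cux-7 are stronger than some of those shown. They were left out and hold none of the 3 either.
rpl-3, chrIII:3867537-3867637, plus strand: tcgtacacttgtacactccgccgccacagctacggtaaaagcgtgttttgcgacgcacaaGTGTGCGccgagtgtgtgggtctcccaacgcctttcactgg
K01G5.10 and tasp-1, chrIII:10759201-10759301, plus strand: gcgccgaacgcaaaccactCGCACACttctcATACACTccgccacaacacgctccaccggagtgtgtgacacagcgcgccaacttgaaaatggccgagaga
rpl-15 and K11H12.8, chrIV:654895-654995, plus strand: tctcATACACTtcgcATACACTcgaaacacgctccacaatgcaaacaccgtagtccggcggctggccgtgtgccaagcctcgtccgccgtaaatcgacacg
K12H4.5, chrIII:8043930-8044030, plus strand: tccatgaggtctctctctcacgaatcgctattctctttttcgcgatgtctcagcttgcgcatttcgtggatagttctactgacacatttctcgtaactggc
rpl-35, chrIII:7854624-7854724, plus strand: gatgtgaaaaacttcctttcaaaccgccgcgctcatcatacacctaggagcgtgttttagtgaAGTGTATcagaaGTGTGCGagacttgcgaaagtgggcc
pro-1, chrII:10542086-10542186, plus strand: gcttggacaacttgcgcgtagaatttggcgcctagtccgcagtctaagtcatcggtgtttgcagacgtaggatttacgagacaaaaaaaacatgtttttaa
F44E5.4 and F44E5.5, chrII:11759438-11759538, plus strand: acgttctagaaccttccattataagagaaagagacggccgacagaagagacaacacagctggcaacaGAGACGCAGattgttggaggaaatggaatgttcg
rpl-20 and Y17G9B.5, chrIV:4750016-4750116, plus strand: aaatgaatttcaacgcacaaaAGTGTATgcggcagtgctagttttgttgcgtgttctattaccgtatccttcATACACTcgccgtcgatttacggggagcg

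The 7-base word CGCACAC was the one that stood out most from the flanks. It occurred in 17 of 204 windows (8.33%), in 2 windows centred 300 bp to the left of the summits and in 0 of 204 centred 300 bp to the right, which allows a share of up to 1.47%. It was in 13 of the 461 other optimal peaks (2.82%), in 93 of 6168 weaker promoter calls (1.51%) and in 203 of 19973 windows placed at position -194 of every coding gene (1.02%). Besides rpl-3, tasp-1 and rpl-35, its windows included those of the histone acetyltransferase gene cbp-1, the DREAM complex gene lin-53, the autophagy gene lgg-1 and the chaperone gene hsp-3. The word ATACACT was picked by eye from the ribosomal protein windows, so its count is only a description. It was in 6 windows (2.94%), against 0 left and 3 right flanks, 1.52% of other optimal peaks, 0.859% of weaker promoter calls and 1.14% of the windows upstream of every coding gene. Those 6 windows were at tasp-1, rpl-15, rpl-35, rpl-20, rps-1 and cox-5B. Among the 665 strongest calls of both replicates were 5 of the 6, against 55.9% of all 204 peaks.

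A second, longer word was shared by other summits, but both sets are small and whether they avoid each other was not tested. Among all 8-base words, CGAGAGGA stood out most from the flanks, with 14 of 204 windows (6.86%), 0 left flanks, 1 right flank and 1 of the 461 other optimal peaks (0.217%). It was in 46 weaker promoter calls (0.746%) and in 61 of the windows upstream of every coding gene (0.305%). The windows below are 6 that hold it outside exons, each turned so that the word reads in the same direction, with the word in capitals.
pinn-1, chrII:2889349-2889449, minus strand: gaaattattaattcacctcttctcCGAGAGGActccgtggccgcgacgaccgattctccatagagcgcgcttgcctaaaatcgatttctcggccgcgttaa
cnk-1, chrIII:10270918-10271018, plus strand: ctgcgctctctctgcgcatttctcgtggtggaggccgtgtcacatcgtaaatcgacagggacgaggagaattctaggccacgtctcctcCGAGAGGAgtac
sqd-1, chrIV:6323804-6323904, plus strand: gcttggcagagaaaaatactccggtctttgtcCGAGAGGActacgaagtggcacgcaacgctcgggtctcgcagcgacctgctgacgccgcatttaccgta
cyn-10, chrII:6913446-6913546, plus strand: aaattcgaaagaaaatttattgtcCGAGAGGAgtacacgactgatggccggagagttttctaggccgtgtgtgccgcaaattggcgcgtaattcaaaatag
dhhc-4, chrIII:9868263-9868363, plus strand: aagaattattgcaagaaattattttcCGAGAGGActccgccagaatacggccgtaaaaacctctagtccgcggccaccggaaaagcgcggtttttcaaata
F56B3.11 and ech-5, chrIV:796846-796946, minus strand: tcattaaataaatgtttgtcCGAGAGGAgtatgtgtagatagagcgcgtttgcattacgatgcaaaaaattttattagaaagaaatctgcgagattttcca

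Of the 14 windows with the word, 12 also held GGCC, against 80 of all 204 windows (39.2%). The 14 summits had a median signal of 191.6 (137.5 to 353.7), both replicates had 10 of them in their top 665, and 12 lay upstream of the nearest 5' end. Over all 204 peaks the median signal was 168.2, and the shares were 55.9% and 81.9%. Its genes had varied roles: pinn-1 encodes a peptidyl-prolyl isomerase, cnk-1 a scaffold of Ras signalling, thoc-5 a subunit of the THO complex for mRNA export, dhhc-4 a palmitoyltransferase and mrt-2 a DNA damage checkpoint protein. Most copies of the word had no peak: the genome holds 2086, and 17 of them (0.815%) lay within 50 bp of one of these summits. Every word except GAGACGCAG, which was preset, was chosen on these same windows. The windows are richer in G and C than their flanks, the weaker promoter calls and the windows upstream of every coding gene. Beside the other optimal peaks their mean content was nearly equal (47.9% and 47.5%). The part of base composition in these counts was not tested.

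Signal is the authors' enrichment score, whose scale was not given in the sources used here. It ran from 136.7 to 537.7 over the 204 peaks, with a median of 168.2 and quartiles of 149 and 207.8. The other 461 optimal peaks had a median of 162.5, and the weaker promoter calls, which are the 6168 calls of the pooled list that meet the same position rule but overlap no optimal peak, had 63.79. The optimal list holds the 665 strongest pooled calls, so the gap to the weaker calls follows from that choice. By its label the pooled list holds peaks and background. The weaker calls may therefore include background, and how many are sites of SDZ-12 was not tested.

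The strongest peak, at chrII:5661589-5661953, had a score of 293 in replicate 1 and 293.6 in replicate 2 and ranked first in both. Its summit lay at position -973, counted in bp from the 5' end of ift-43 with negative values upstream. This gene encodes a protein of intraflagellar transport, the traffic that builds cilia. That summit was in a coding exon of mdt-26, a Mediator subunit gene, and near the 1000 bp edge of the rule, so its tie to ift-43 is by distance alone. Next came rpl-3, a gene of the large ribosomal subunit, at chrIII:3867476-3867674, with 253.7 in replicate 1 and 256.4 in replicate 2. The peak between K01G5.10 and tasp-1, a threonine aspartase homologue, had 247.7 in replicate 1 and 228.9 in replicate 2. These 3 scored alike in both replicates and ranked among the strongest 5 calls of each.

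The rest of the strongest 25 had a mixed set of neighbours. The ribosome was represented by rpl-3, rpl-15, rpl-35, rpl-20 and rps-19. The RNA-directed RNA polymerase gene ego-1, which acts in germline small RNA pathways, had 221.9 in replicate 1 and 172.7 in replicate 2. Genes for protein folding and unfolding were there too. hsp-1, a constitutive Hsp70 gene, had 181.5 in replicate 1 and 129.6 in replicate 2, and the Hsp40 gene dnj-13 had 131.1 in replicate 1 and 144.7 in replicate 2. The Hsp70 pair F44E5.4 and F44E5.5 had 154.8 in replicate 1 and 177.4 in replicate 2. cdc-48.1, which pulls ubiquitinated proteins out of complexes, had 174.7 in replicate 1 and 136.2 in replicate 2. All of these were within the 100 strongest calls of both replicates. F44E5.4 and F44E5.5 are near-identical copies that face away from each other, so reads of one can be placed at the other. The coactivator gene cbp-1 had its summit at position -925, with 151.1 in replicate 1 and 168 in replicate 2. The other neighbours included pro-1 for pre-rRNA processing, ears-2 for mitochondrial glutamyl-tRNA, mpc-2 for mitochondrial pyruvate import, the 14-3-3 gene ftt-2 and lig-4 for DNA end joining.

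Summits lay over a wide range of distances from the annotated 5' end, mostly upstream, as most of the window does. The median position relative to the nearest end was -194.5, with quartiles at -431.2 and -43.25, and 167 of 204 (81.9%, 76.0 to 86.6) were upstream. The bin from 1 to 200 bp upstream was the fullest, with 67 summits (32.8%, 26.8 to 39.6), against 18.1% of weaker promoter calls and 18.0% of all 21401361 bases that meet the rule. The farthest 200 bp of the window, up to 1000 bp upstream, held 8 (3.92%), against 14.5% of weaker calls and 15.4% of bases. Downstream of the end, from 0 to 200 bp, lay 37 summits (18.1%), against 25.6% of weaker calls and 18.6% of bases. The share upstream was therefore close to that of the bases, while 74.4% of weaker calls were upstream.

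**Figure D1:**
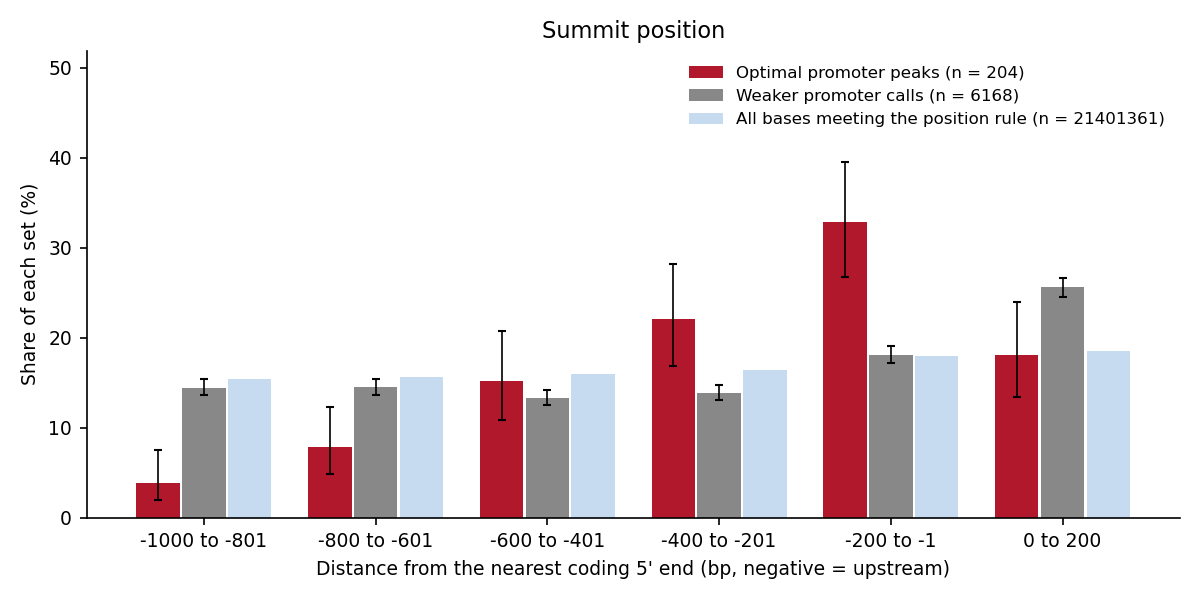
Share of each set (%, vertical) by distance of the summit from the nearest coding 5' end (bp, horizontal, negative upstream) for the 204 optimal promoter peaks, the 6168 weaker promoter calls and all bases that meet the position rule. Bars on the first 2 sets are 95% Wilson intervals. The optimal promoter peaks fill the bin 1 to 200 bp upstream (32.8%) more than the weaker calls (18.1%) and thin out towards 1000 bp (3.92% against 14.5%).

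Against the coding genes themselves, 146 summits (71.6%) lay between genes, 25 (12.3%) in coding exons, 17 in introns and 16 in noncoding parts of exons. Weaker calls lay between genes less often (46.5%) and in coding exons more often (31.7%). The body of a gene other than the one whose window they met held 22 summits (10.8%), against 29.2% of weaker calls. Examples are the summit of ift-43 inside mdt-26, that of pinn-1 in an intron of sqv-2, a gene of glycosaminoglycan synthesis, and that of C47E8.4 in an intron of hsp-90. Of the 198 coding genes nearest to a summit, 88 (44.4%, 37.7 to 51.4) had the letters AG just before their annotated 5' end, against 27.6% of all coding genes. AG is the end of a splice acceptor and is what a trans-splice site leaves before the annotated end.

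At the edges of the rule, the farthest upstream were lido-7 at -986 (signal 156.5), ift-43 at -973 and Y24D9A.7 at -969 (171.8), while fbxb-58 at -1005 (138.9), R12E2.13 at -1008 (153.4) and dhs-8 at -1012 (173.2) fell just outside. On the downstream side lpin-1 at 191 bp, Y22D7AL.4 at 186 and nhr-99 at 168 were inside, and W09D10.5 at 203, kpc-1 at 216 and R10E11.6 at 273 outside. The closest small RNA genes were 278 bp from the summit at rps-12, 333 bp at rpl-7A and 441 bp at ZK484.6. Summits 184 bp (T04D3.5), 179 bp (let-70) and 107 bp (tim-1) from a small RNA gene were left out.

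Divergent promoters were common. The summit lay between the 5' ends of a pair of genes pointing away from each other, within both windows, at 45 of 204 peaks (22.1%, 16.9 to 28.2). The same held for 423 of 6168 weaker calls (6.86%, 6.25 to 7.52) and for 6.78% of all bases that meet the rule. Counted by gene the contrast was small. Of the 198 coding genes nearest to a summit, 100 (50.5%, 43.6 to 57.4) had an upstream neighbour on the opposite strand. The share of all coding genes, 45.4%, lies within that interval. The median gap to the upstream neighbour was 765 bp for the nearest genes, against 1156 bp for all coding genes. Single genes had 142 peaks (69.6%), overlapping windows on the same strand 9, and opposite strands with the summit not between them 8. With replicate 2 alone the divergent share was 32 of 193 (16.6%), and with replicate 1 alone 46 of 205 (22.4%).

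The 5' ends of these divergent pairs were a median of 498 bp apart (92 to 1443), against 789 bp for weaker divergent calls. The closest were ears-2 and uncp-18 (92 bp), F10E9.5 and F10E9.7 (151 bp) and cux-7 and C07H6.2 (164 bp). The most distant were dlc-1 and nduf-2.2 (1443 bp), nhl-2 and tag-340 (1423 bp) and R107.5 and cls-2 (1258 bp). The nearer 5' end was a median of 32.9% of the gap away. Which gene of such a pair a peak belongs to cannot be read from these data.

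Divergent and single promoters had nearly the same middle signal, at medians of 168.3 and 166.6, but the upper quartile was 275.7 for divergent and 204.6 for single promoters. Among the 665 strongest calls of both replicates were 28 of 45 divergent peaks (62.2%, 47.6 to 74.9) and 77 of 142 single ones (54.2%, 46.03 to 62.2), with intervals that overlap. GC content at the summit had a median of 52.5% at divergent and 46.5% at single promoters. Listed genes were found beside 31 of 45 divergent peaks (68.9%) and 42 of 142 single ones (29.6%), and a divergent peak has at least 2 genes that can count. Pairs of this kind joined lin-35, the worm retinoblastoma homologue, with vps-51, rpl-12 with lin-54, rps-20 with ekl-4 and hsp-16.2 with hsp-16.41.

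The 204 summits lay in 270 promoter windows of 263 coding genes, which is 1.32% of the 19973 annotated. Shares of the lists below are to be read against that 1.32%. The lists cover 88 of the 263 genes, and several share peaks, so they are not separate counts.

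**Figure D2:**
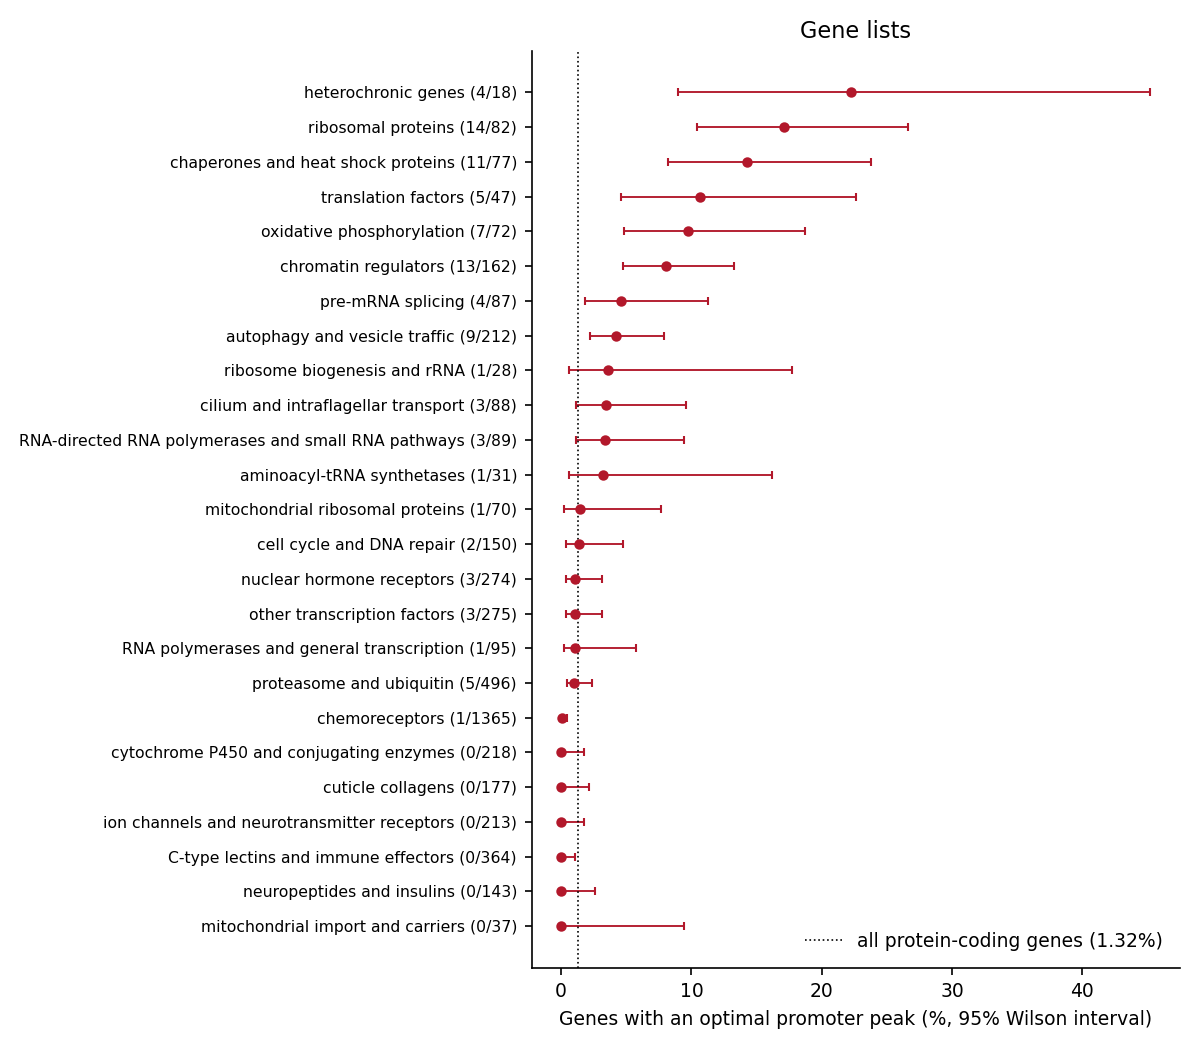
Share of the genes of each list with an optimal promoter peak (%, horizontal, with 95% Wilson intervals), with genes with a peak over genes in the list in brackets. The dotted line is the share of all coding genes (1.32%). Heterochronic genes (22.2%), ribosomal proteins (17.1%) and chaperones (14.3%) lie highest, and 6 lists have no gene.

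Genes of the cytosolic ribosome were the largest group by count. Of 82 ribosomal protein genes, 14 had a peak (17.1%, 10.4 to 26.6), and these 14 peaks had a median signal of 213.7. They were rpl-3, rpl-15, rpl-35, rpl-20, rps-19, rps-23, rps-1, rps-20, rpl-43, rpl-7A, rpl-12, rps-11, rpl-27 and rps-12. At 10 of the 14 peaks the promoter was divergent, 10 were in the top 665 of both replicates, and 0 were on X. Over all 204 peaks these shares were 22.1%, 55.9% and 8.33%. With only the nearest gene counted for each peak, 8 ribosomal protein genes remained, because at 6 divergent promoters the partner was nearer, such as hsr-9 beside rps-19 and ekl-4 beside rps-20. Signals ran down to 140.1 at rps-12. The widest gap in rank among the 14 was at rps-11, ranked 158 in replicate 1 (score 109.7) and 4328 in replicate 2 (47.73).

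Other parts of protein synthesis were present in smaller numbers. Translation factors had 5 of 47 genes (10.6%, 4.63 to 22.6): eif-3.C (190) and eif-3.B (142) of the initiation factor that loads mRNA, the eIF5A gene iff-2 (173.8), the mitochondrial elongation factor gene tufm-2 (156.3) and the elongation factor gene eef-1A.2 (152.3), with pooled signals in brackets. Ribosome biogenesis had pro-1 alone of 28, aminoacyl-tRNA synthetases ears-2 of 31, the general transcription list rpac-19, a subunit of RNA polymerases I and III, of 95, and mitochondrial ribosomal proteins mrpl-41 of 70. With 1 gene each, these 4 lists do not stand apart from the 1.32% background within their intervals.

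Chaperone genes had 11 of 77 (14.3%, 8.17 to 23.8), on 9 peaks with a median signal of 243. Besides those already named they were cct-8 (249.1), a subunit of the chaperonin that folds actin and tubulin, bag-1 (243), a co-chaperone of Hsp70, the mitochondrial chaperonin gene hsp-60 (200.3), the endoplasmic reticulum Hsp70 gene hsp-3 (181.9), the heat-inducible pair hsp-16.2 and hsp-16.41 (165.9) and the prefoldin gene pfd-1 (149.2). At 7 of the 9 peaks both replicates ranked the call among their 665 strongest, against 55.9% of all 204 peaks. The labels name no heat shock.

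Oxidative phosphorylation had 7 of 72 genes (9.72%, 4.79 to 18.7), all with signals from 142.4 to 207.5. They were cox-5A, atp-1, atp-4, mai-1, cox-5B, nduf-2.2 and nduf-9, which serve cytochrome c oxidase, the ATP synthase, its inhibitor and complex I. Both replicates had 3 of the 7 in their top 665, against 48.9% of all optimal peaks, which sets these genes little apart. cox-5B ranked 5369 in replicate 1 (score 48.86) and 237 in replicate 2 (91.99). For nduf-9 the ranks were 173 in replicate 1 (107.2) and 9972 in replicate 2 (38.48).

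Chromatin regulators had 13 of 162 genes (8.02%, 4.75 to 13.2), on 13 peaks with a median signal of 163.6. cbp-1 was the strongest (317.1), followed by lin-35 (275.7). lin-35, lin-53 (168.3) and lin-54 (161.1) encode parts of the DREAM complex, which holds cell cycle and germline genes down. epc-1 (186.2) and ekl-4 (191.6) encode parts of a histone acetyltransferase complex, swsn-7 (163.6) and swsn-3 (142.5) parts of the SWI/SNF remodeller, and set-16 (140.6) a histone methyltransferase. Both replicates ranked 7 of these 13 peaks in their top 665, which is near the 55.9% of all 204 peaks.

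Of 18 heterochronic genes, the timers of larval development, 4 had a peak (22.2%), with an interval of 9.001 to 45.2 because the list is short. They were nhl-2 (290.3), lin-66 (208.7), puf-9 (207.1) and mab-10 (145.5). nhl-2 acts with microRNAs, and its summit lay at position -849 and nearer to tag-340. mab-10, a cofactor of the late larval regulator lin-29, ranked 4505 in replicate 1 (score 50.87) and 265 in replicate 2 (88.4). Small RNA pathway genes had 3 of 89, which were ego-1, nhl-2 and eri-5 (172.1).

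Membrane traffic and autophagy had 9 of 212 genes (4.25%, 2.25 to 7.87), led by vps-51 (275.7), the translocon gene sec-61.G (259.5) and snx-13 (236.2), and including lgg-1 (200.2), the worm ATG8. Splicing had 4 of 87 (4.60%), prp-19, snr-1, mog-4 and lsm-6. Cilium genes had 3 of 88 (3.41%), ift-43, the RFX factor gene daf-19 (162.2) and the kinesin-associated gene kap-1 (146.5). The interval for splicing, 1.80 to 11.2, lies above the 1.32% background, while that for cilium genes, 1.17 to 9.55, includes it. Only 2 of the 4 splicing genes were the nearest to their summit, and lsm-6 had no replicate 2 call within 200 bp. Splicing genes are thus not clearly set apart.

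Other lists were at or below the background. Proteasome and ubiquitin genes had 5 of 496 (1.01%): kel-3, cdc-48.1, wwp-1, eel-1 and usp-4. Cell cycle and repair genes had lig-4 and cdc-48.1 of 150 (1.33%), nuclear hormone receptors nhr-88, nhr-105 and nhr-99 of 274 (1.09%), and other transcription factors cux-7, mab-31 and mab-10 of 275 (1.09%), where RefSeq calls the cux-7 product an RRM domain protein. Chemoreceptors had srh-2 alone of 1365 (0.0733%), with a summit that lay nearer to icl-1, the glyoxylate cycle gene.

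6 lists had 0 genes. A count of 0 allows a share of up to 0.824% of the 364 C-type lectins and immune effectors, 1.38% of the 218 cytochrome P450 and conjugating enzymes, 1.41% of the 213 ion channels and receptors, 1.69% of the 177 cuticle collagens and 2.10% of the 143 neuropeptides. For the first of these the limit is below the 1.32% background, and for the rest it is not. The list of mitochondrial import also had 0 of 37 (up to 8.11%), but its symbols missed 4 genes with a peak that RefSeq names so: ddp-1 (Tim8), F56B3.11 (Tim21), mpc-2 (pyruvate carrier) and F01G4.6 (phosphate carrier). Its 0 is therefore a limit of the list.

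By chromosome, peaks were sparse on X and V and dense on III. X held 17 of 204 (8.33%, 5.27 to 12.9), against 13.7% of coding genes, 14.5% of bases that meet the rule, 13.3% of weaker promoter calls and 21.9% of the other optimal peaks. III held 44 (21.6%, 16.5 to 27.7), against 13.2% of coding genes, and V held 26 (12.7%, 8.85 to 18.0), against 25%. I, II and IV held 38, 43 and 36, with intervals that include the gene shares of 14.4%, 17.3% and 16.4%. The share on X was 8.29% both in replicate 1 alone and in replicate 2 alone. With promoter summits within 200 bp of a small RNA gene kept, X held 29 of 255 (11.4%), nearer to the 13.7% of coding genes. The low share on X thus depends in part on leaving those summits out, and no interval was computed for the 11.4%. The 51 promoter peaks left out in this way are counted among the other optimal peaks.

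**Figure D3:**
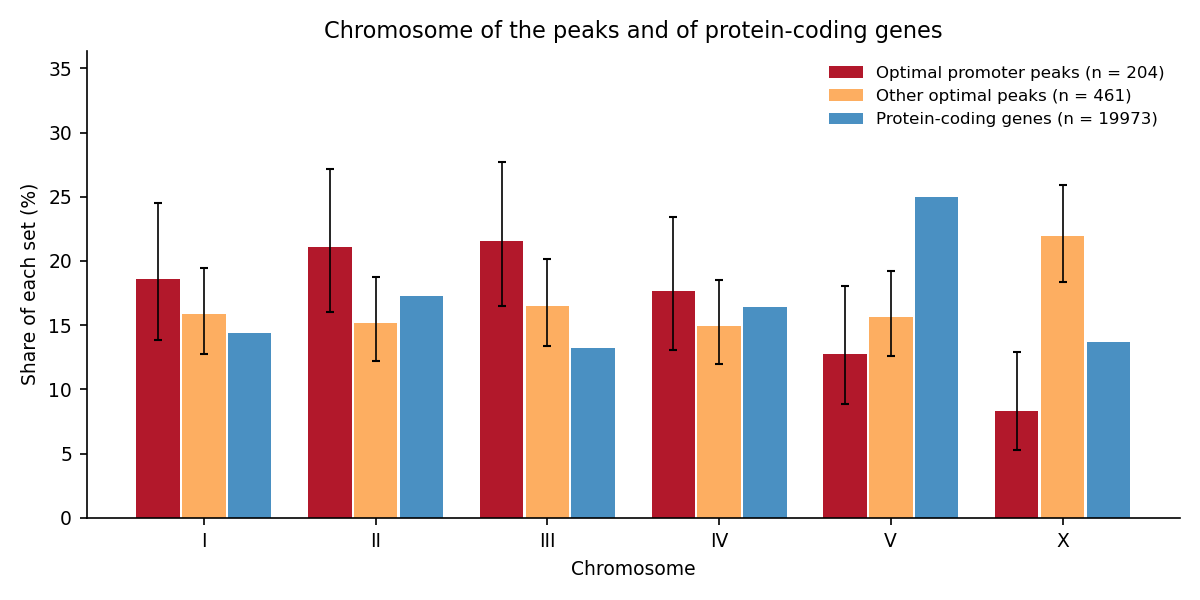
Share of each set (%, vertical) by chromosome for the 204 optimal promoter peaks, the 461 other optimal peaks and the 19973 protein-coding genes. Bars on the peak sets are 95% Wilson intervals. The optimal promoter peaks are low on X (8.33%) and V (12.7%) beside the genes (13.7% and 25%), and the other optimal peaks are high on X (21.9%).

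Of the 45 divergent peaks 0 were on X, which allows up to 6.67% of divergent peaks, and of the 142 single ones 16. X held only 17 peaks, and 6.78% of all bases that meet the rule are divergent, so a count of 0 can say little. The divergent share of the bases on X was not computed. Leading X genes were ftt-2 (295.9), T13C5.6 (275.5), the Polycomb-like RING gene spat-3 (227) and the Pumilio-family gene puf-9 (207.1). The median signal was 166.9 on X and from 163.8 (I) to 178.9 (III) on the autosomes. With each chromosome cut into 3 equal parts, the central one held 38.2% of the peaks and 37.8% of coding genes.

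GC content was higher at the summits than around them. The window of 50 bp to each side held 47.9% ± 9.16 G and C (SD over 204 peaks), against 36.9% ± 6.76 in the flanks centred 300 bp away, and was richer than its flanks at 177 of 204 peaks (86.8%). Weaker promoter calls had 42.1% ± 8.77 at the summit and 36.8% ± 6.36 in the flanks, and windows at position -194 of every coding gene 34.3% ± 8.21. The other optimal peaks had 47.5% ± 8.59, so a GC-rich summit was not particular to these promoters. CpG pairs averaged 6.86 per window, against 5.78 at the other optimal peaks, 4.52 at weaker calls and 3.05 upstream of every coding gene.

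**Figure D4:**
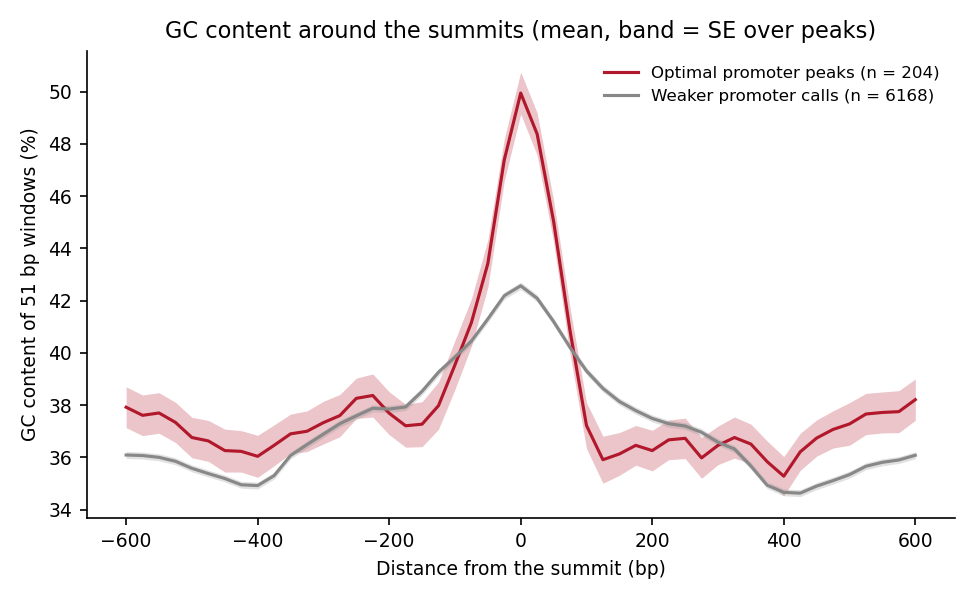
Mean GC content of 51 bp windows (%, vertical) by distance from the summit (bp, horizontal) for the 204 optimal promoter peaks and the 6168 weaker promoter calls; bands are the standard error over peaks. The optimal promoter peaks reach 49.9% at the summit and return to 37.2% by 100 bp on the right side, while the weaker calls reach 42.6%.

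The range was wide. The richest summits were at dlc-1 and nduf-2.2 (70.3%), F41F3.3 and F41F3.8 (69.3%) and Y53H1A.2 (67.3%). The poorest were at mpc-2 and at icl-1 and srh-2 (26.7% each) and lpin-1 (27.7%), and mpc-2 had a score of 188.3 in replicate 1 and 97.03 in replicate 2. Leaving out summits in exons gave 47.9% at the summit and 36.5% in the flanks.

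Of 16 preset motifs, sought on both strands, none was found at more than 27 of the 204 summits. The EOR-1 site GAGACGCAG was at 8 (3.92%), against 2 left and 1 right flanks, 2.39% of other optimal peaks and 1.06% of the windows upstream of every coding gene. It stood at the F44E5.4 and F44E5.5 pair, R107.5 and cls-2, sec-61.G, lin-66, hsp-3, Y41D4A.4, set-16 and ddp-1. The GC box GGGCGG was at 13 (6.37%), against 5 left and 3 right flanks, 6.07% of other optimal peaks and 2.30% upstream of every coding gene. The heat shock element GAANNTTC was at 15 (7.35%), against 19 left and 17 right flanks. The site of SKN-1, the factor on which early sdz-12 expression is known to depend, was sought as ATGTCAT or ATATCAT, or the same with T as the first letter, and was at 10 (4.90%), against 12 left and 9 right flanks and 8.47% at position -194 of every coding gene. Some motifs rich in A and T were fewer at the summits than in the flanks: TTTTTTTT was at 8, against 27 and 29 in the flanks, the GATA site TGATAA at 7, against 19 and 20, and the splice acceptor TTTTCAG at 10, against 28 and 31. The forkhead site TGTTTAC was not, at 5 summits, against 1 left and 6 right flanks. The B box of RNA polymerase III genes was at 0 of 204, which allows up to 1.47%. It was at 0.195% of weaker promoter calls and 0.190% of the windows upstream of every coding gene. The rule keeps these summits away from tRNA genes, so a count near 0 follows from it. The other optimal peaks, among which tRNA genes were not removed, had it at 29 of 461 (6.29%). No match says only that these letters were not in the window.

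Both replicates had a call within 200 bp of nearly every summit, 202 of 204 (99.0%). Among the 665 strongest calls were 157 summits in replicate 1 (77.0%), against 72.6% of all optimal peaks, and 152 in replicate 2 (74.5%), against 69.2%. In both at once were 114 (55.9%, 49.02 to 62.5), against 48.9% of all optimal peaks and 45.8% (41.3 to 50.3) of those outside the 204. The lower end of the interval is next to the 48.9% of the whole list, so the promoter peaks stand little apart from it.

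Rank among the 204 comes from the pooled score, which is made from both replicates, so a high rank goes with high scores in both by construction. All of the 50 strongest of the 204 were among the strongest of both replicates, then 40 of the next 50, 17 of the next 50 (34.0%) and 7 of the last 54 (13.0%). Over the 202 peaks with both calls, Spearman's rho of the replicate scores was 0.39 and Pearson's r of the log2 scores 0.51, against 0.28 and 0.40 over 448 other optimal peaks. Peaks are not replicates, and the same pooled score selected them, which limits what these coefficients can say. Summits of the replicates were a median of 15 bp apart, against 26 bp at the other optimal peaks, and 156 of 202 (77.2%) were within 50 bp of each other, against 68.1%.

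**Figure D5:**
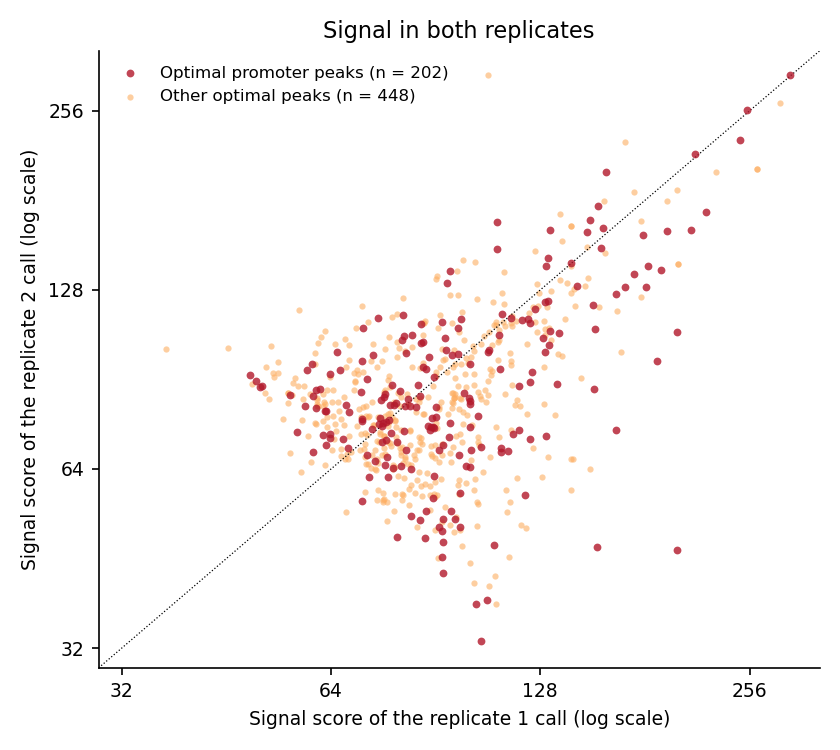
Signal score of the replicate 2 call (vertical) against that of the replicate 1 call (horizontal), both on log axes, for 202 optimal promoter peaks and 448 other optimal peaks with a call of both replicates within 200 bp. The dotted line marks equal scores. The strongest promoter peaks lie near the line, ift-43 at 293 and 293.6, and the weaker ones spread away from it on both sides.

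The log2 ratio of replicate 1 over replicate 2 had a median of 0.09 and ran from -0.91 to 2.11. The highest is the second summit of kin-14, whose replicate 1 call is also matched to the first summit there, and the next was 1.71 at F26F12.2. The largest gaps in rank towards replicate 1 were at F56B3.11 and ech-5 (rank 182 in replicate 1 and 16025 in replicate 2), the second summit of kel-3 (195 and 10419) and nduf-9. Those towards replicate 2 were at cox-5B, mrt-2 (4880 and 250) and nhr-99 (4630 and 274). No replicate 2 call lay within 200 bp of the summits at lsm-6 and at Y57G11B.3 and Y57G11B.5. Those summits thus had a matched call in replicate 1 only. The other peaks named here were called in both, so a gap in rank is not absence from 1 replicate. Scores in replicates 1 and 2 were 48.86 and 91.99 at cox-5B, 50 and 90.05 at mrt-2 and 50.57 and 87.94 at nhr-99. They were further apart at F56B3.11 and ech-5 (105.2 and 32.94), the second summit of kel-3 (103.5 and 37.99) and nduf-9 (107.2 and 38.48).

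Most peaks were of one fixed width, 420 bp, at 192 of 204, and 12 were narrower. The narrowest were at Y17G7B.20 (116 bp), mog-4 (138 bp) and K12H4.5 (139 bp). At 6 promoters a pair of summits about 200 bp apart both qualified: kel-3, kin-14, ftt-2, spat-3, ahcy-1 and the pair of ddp-1 and ttc-7. At kin-14, a tyrosine kinase gene, one summit lay 106 bp downstream of the 5' end with a score of 298.9 and the other at position -108 with 183.8, and both were matched to the same replicate 1 call, ranked 11. Whether such summits are separate sites was not tested, and the 204 peaks amount to 198 with the weaker of each pair left out.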

How the data were processed

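Chromatin from 2 biological replicates of 1 group was analysed. Per the labels, coordinates are on ce11 (WBcel235). The peak caller, its threshold and the read depth are not given in the sources used here, and no control library was used here. The authors deposited a list of 30000 calls per replicate, a pooled list of 30000 labelled as peaks and background, and the optimal list of 665. In each, the deposited signal is a score per peak whose scaling is not given, and the deposited summit is an offset from the peak start. Scores were used to describe and rank peaks.

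All else was computed with Python 3.11.15, NumPy 2.4.6 and pandas 2.3.3 and tested on simulated data. Gene positions came from Ensembl release 115 and sequences and products from RefSeq. A replicate call was matched within 200 bp of a summit. With 1 group there was no test across samples, and 95% Wilson intervals and limits for counts of 0 (3 counts) cover counting error only. Named genes were those of the 25 strongest peaks, up to 4 per list, the edges of the rule and the widest rank gaps, and others were chosen after their values were seen. The members and lists were chosen with earlier results of these data known.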

Additional observations from a re-analysis of the deposited data

How the results depend on the processing

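Of 84 alternatives to 10 results, 70 stayed within preset limits, 14 moved the value beyond them and 0 reversed it. The limits were a factor of 1.5 for counts and 95% intervals over peaks for shares and the correlation. For the median position, median signal and GC difference they were 1 SD of the replicates taken alone. Those for counts are wide, at 136 to 306 peaks, so staying within them says little. Windows of 500 bp and 2000 bp upstream moved the median summit position to -142 and -270 and the share 1 to 200 bp upstream to 40.1% and 25.6%. The median position was -218 with no small RNA filter and -232.5 with every annotated 5' end. Among the 332 strongest optimal peaks were 113 of the promoter peaks, with a median signal of 203.8 and 85.0% among the strongest calls of both replicates. A 51 bp window gave a GC difference of 13.1 points. Counting the nearest 5' end only left 8 ribosomal protein genes. Leaving out 1 replicate gave 193 to 205 peaks, median positions from -217 to -200, divergent shares from 16.6% to 22.4%, GC differences from 8.13 to 10.97 points, shares on X of 8.29% and 12 to 13 ribosomal protein genes. Leaving out the weaker of 2 summits within 250 bp, an alternative chosen after seeing the data, gave 198 peaks. The causes were not tested. No paired analysis was possible because there was 1 group and no test. Depth was unknown, so no limit of detection could be given for promoters without a peak.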
